A study of Homo sapiens with 51 samples.

Results

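The genes described here are 9 components and targets of transforming growth factor beta (TGF-beta) signalling: the ligands TGFB1, TGFB2 and INHBA, the receptors TGFBR1 and TGFBR2, the signal transducers SMAD3 and SMAD4, the inhibitor SMAD7 and the target TGFBI. They were taken by symbol from a table of 25421 genes, and 9 of 9 were found and tested. The table holds 51 PLATE-seq libraries, a pooled assay that counts the 3′ ends of transcripts, made in 17 groups of 3 from 5 established human cell lines of pancreatic ductal adenocarcinoma (PDA). KP4, PANC1 and PK45H each had an untreated group, a group given a lentiviral mCherry open reading frame (a fluorescent protein, the control), one given lentiviral OVOL2 (a zinc-finger transcription factor), and mCherry and OVOL2 groups that also received M2rtTA, the transactivator of tetracycline-inducible promoters. HPAFII and PATU8988S were untreated. Per the labels, virus was added at a multiplicity of infection of 2 with 8 µg/ml polybrene, selection with 2.5 µg/ml puromycin and induction with 0.6 µg/ml doxycycline began the next day, and RNA was collected after 6 days in total. The labels name no clone, and the promoter of the open reading frame is not given in the sources used here.

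TGF-beta ligands and activins are secreted dimers that bring a type II receptor and a type I receptor kinase together. The type I kinase phosphorylates SMAD2 and SMAD3, which join SMAD4 and act on genes in the nucleus, while SMAD7 blocks the receptor. In pancreatic carcinoma the pathway is known both for restraining growth and for driving epithelial-to-mesenchymal transition, a change that OVOL factors are known to oppose.

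Levels are given as CPM, counts divided by the library's total after TMM scaling, and they compare libraries for 1 gene, not genes with each other. A change is a log2 fold change, printed with its standard error (SE). Its adjusted p comes from the quasi-likelihood test of edgeR, after Benjamini-Hochberg adjustment over all genes tested. A change is called where the adjusted p is under 0.05. Library totals ran from 1165399 to 7490556 counts. Ductal keratins (KRT7, KRT8, KRT18 and KRT19) were detected in all 51 libraries, at 568 to 13443 CPM in sum. The labels describe triplicate wells of 1 transduction set-up and do not say how the untreated replicates were made, so p-values measure the spread between these libraries, which may be technical. In bulk RNA, fewer cells with a transcript and less transcript per cell cannot be told apart.

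The OVOL2 transcript was examined first. Whether the 3′ counting covers the end of the lentiviral open reading frame is not given in the sources used here, so these counts may miss viral transcript and are a limited check of the labels. Without M2rtTA, the 9 OVOL2 libraries held 54 OVOL2 counts and the 9 mCherry libraries 56, a change of −0.09 (SE 0.46, adjusted p = 0.926), so the libraries labelled OVOL2 showed no measured rise of the transcript. With M2rtTA the sums were 178 and 42, a rise of 2.15 (SE 0.44, adjusted p = 0.00021). Of the 178 counts, 62 came from KP4 replicate 2, while the other KP4 libraries of the group gave 13 and 9. The rise over lines was 1.77 when that library was left out. By line with M2rtTA, PANC1 was not called (1.40, adjusted p = 0.244, overlapping libraries). The calls in KP4 (3.08, adjusted p = 0.0272) and PK45H (1.98, adjusted p = 0.0135) were each lost on leaving out single libraries. In KP4 these were mCherry replicates 1 and 2 and OVOL2 replicate 2, without which the change was 2.95, 2.57 and 1.92, and in PK45H mCherry replicates 1 and 2, at 1.91 and 1.69. Every effect without M2rtTA given here is therefore one of libraries labelled OVOL2. The sum of 5 fibroblast markers, COL1A1 among them, also moved with the treatment. With M2rtTA it was 43.5 to 53.7 CPM with OVOL2 and 22.4 to 31.4 with mCherry in KP4, 46.8 to 68.3 and 28.0 to 38.0 in PANC1, and 28.2 to 33.8 and 11.4 to 14.6 in PK45H, while LUM was at 0 in 41 of 51 libraries. The keratin sum moved too. In PK45H it was 4246 to 4574 CPM with OVOL2 and 2471 to 2922 with mCherry without M2rtTA, and 4353 to 4480 and 1820 to 1983 CPM with it. In KP4 it was 895 to 1010.2 and 730.2 to 760.4 CPM without M2rtTA, and 771 to 867 and 568 to 590.3 CPM with it. PANC1 went the other way with M2rtTA, at 1686 to 2087 CPM with OVOL2 and 2177 to 2503 with mCherry, and overlapped without it. The part of either in the results was not tested.

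Averaged over the 3 lines, OVOL2 went with lower TGFBR1 and lower TGFBI in both arms, and with higher TGFB1 where M2rtTA was present. With M2rtTA the lines differed for TGFB1 (edgeR, adjusted p = 2.5e-05), which was called in PK45H alone and was lower in PANC1 without a call. They also differed for TGFBI (adjusted p = 0.00212), which was not lower in KP4. Without M2rtTA, 3 of 9 genes were called against mCherry, all lower (TGFB2, TGFBR1 and TGFBI), beside 18.1% of all 14943 genes tested in either direction and 8.81% lower. With M2rtTA, 3 of 9 were called (TGFB1 higher, TGFBR1 and TGFBI lower), beside 32.9% of all genes. The median change of the 9 genes was −0.07 in either arm, against 0.00 and 0.03 over all genes. In the arm with M2rtTA the share called among the 9 is near that of all genes.

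**Figure D1:**
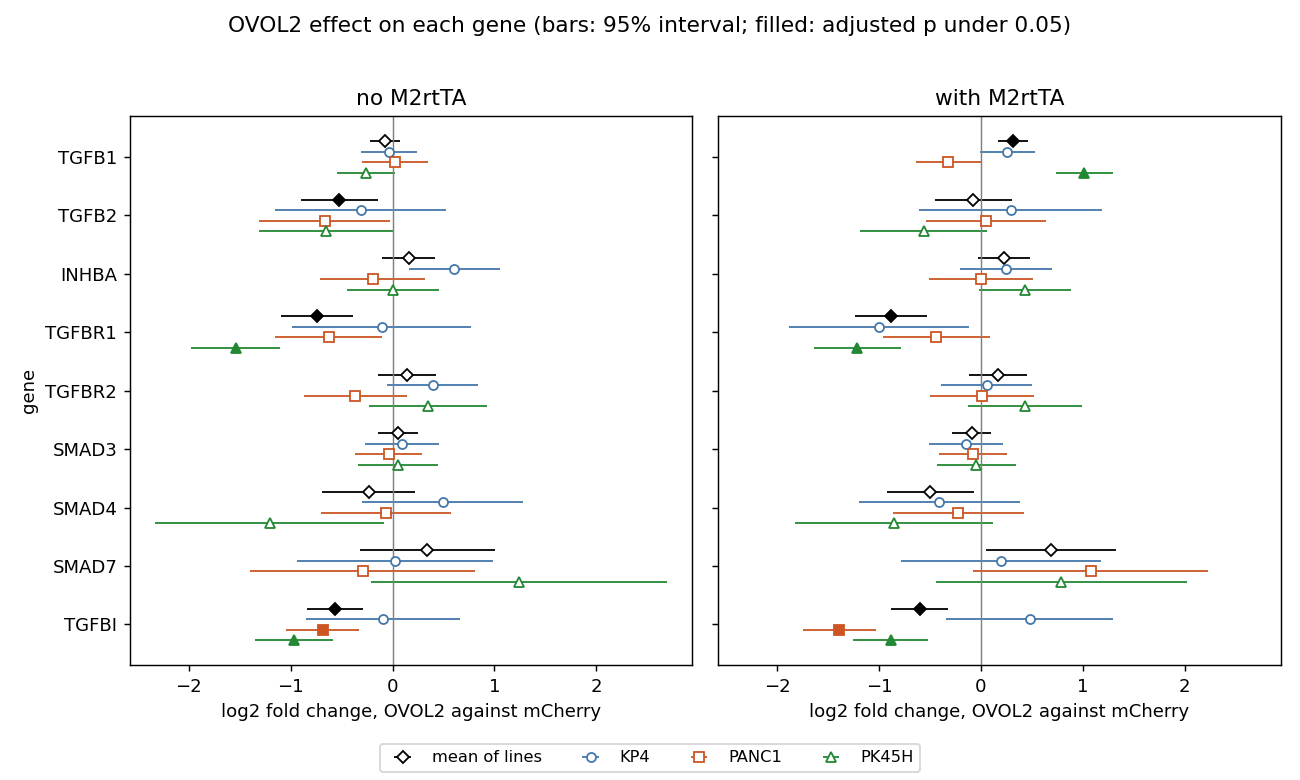
Log2 fold change of OVOL2 against mCherry (x axis) for each of the 9 genes (y axis), without M2rtTA (left) and with it (right), for the mean of lines and each line; bars are 95% intervals and filled symbols have an adjusted p under 0.05. TGFBR1 and TGFBI lie left of 0 in PANC1 and PK45H in both panels, and TGFB1 lies on both sides of 0 in the right panel.

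TGFB1, a ligand stored in the matrix in latent form, was the 1 gene of the 9 whose response differed between the arms. In PK45H with M2rtTA it measured 147, 132 and 129.6 CPM with OVOL2 and 69.0, 67.3 and 74.4 CPM with mCherry. These libraries did not overlap, and the rise was 1.02 (SE 0.13, adjusted p = 0.00018). In PK45H without M2rtTA the values were 57.5, 65.7 and 59.3 CPM with OVOL2 and 76.0, 59.0 and 73.1 CPM with mCherry. Here the groups overlapped, with a change of −0.26 (SE 0.13, adjusted p = 0.251).

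In PANC1 with M2rtTA, TGFB1 measured 35.7, 29.6 and 31.7 CPM with OVOL2 and 41.6, 40.9 and 38.4 CPM with mCherry. All 3 OVOL2 libraries lay below all 3 mCherry libraries, yet the change of −0.32 (SE 0.15, adjusted p = 0.191) was not called. In KP4 with M2rtTA the values were 65.5, 65.2 and 65.3 CPM with OVOL2 and 61.6, 55.0 and 47.7 CPM with mCherry, again without overlap and not called (0.26, SE 0.13, adjusted p = 0.160). Without M2rtTA the changes were −0.04 in KP4 and 0.02 in PANC1, with overlapping libraries.

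Averaged over lines, TGFB1 changed by 0.32 with M2rtTA (SE 0.07, adjusted p = 0.00082) and by −0.07 without it (SE 0.07, adjusted p = 0.548). A test of the difference between lines was called with M2rtTA (adjusted p = 2.5e-05), so the mean over lines does not describe each line. The difference between the arms was 0.39 (SE 0.10, adjusted p = 0.0148). It was called for 1 of 9 genes, beside 7.72% of all genes.

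TGFB2, another TGF-beta ligand, had low counts in KP4, PANC1 and PK45H, from 4 to 97 per library. Without M2rtTA, PANC1 libraries measured 3.79, 2.81 and 3.71 CPM with OVOL2 and 5.20, 6.27 and 4.75 CPM with mCherry. In PK45H the values were 4.81, 5.36 and 7.15 CPM against 6.84, 9.14 and 10.1 CPM. The PANC1 groups did not overlap and the PK45H groups did. In KP4 the groups overlapped too, at 3.55, 1.89 and 2.21 CPM against 2.28, 3.45 and 3.89 CPM. The mean over lines fell by 0.52 (SE 0.19, adjusted p = 0.0460), a call that lies at the threshold and was lost when any of 12 of the 18 libraries was left out. No single line was called, at −0.67 in PANC1 (adjusted p = 0.241), −0.65 in PK45H (adjusted p = 0.224) and −0.31 in KP4 (adjusted p = 0.733).

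With M2rtTA the TGFB2 change over lines was −0.07 (95% interval −0.45 to 0.31, adjusted p = 0.824). The PK45H libraries measured 6.20, 8.38 and 7.40 CPM with OVOL2 and 9.87, 16.3 and 7.66 CPM with mCherry. They overlapped, and the highest mCherry library stood apart from its mates. The arms were not shown to differ for TGFB2 (0.45, SE 0.26, adjusted p = 0.326).

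INHBA encodes the beta A subunit of activin A, which signals through its own receptors to the same SMADs. In KP4 without M2rtTA it measured 28.3, 27.1 and 30.5 CPM with OVOL2 and 15.5, 24.3 and 16.2 CPM with mCherry. The groups did not overlap, but the change of 0.60 (SE 0.21, adjusted p = 0.105) was not called. Over lines INHBA changed by 0.16 without M2rtTA (95% interval −0.10 to 0.41, adjusted p = 0.438) and by 0.22 with it (−0.03 to 0.48, adjusted p = 0.181).

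TGFBR1 encodes the type I receptor kinase through which TGF-beta ligands signal. In PK45H without M2rtTA, OVOL2 libraries measured 7.21, 8.64 and 5.68 CPM and mCherry libraries 18.3, 17.5 and 24.0 CPM. With M2rtTA the PK45H libraries measured 9.60, 6.10 and 8.79 CPM against 21.9, 18.4 and 19.2 CPM. In either arm every OVOL2 library lay below every mCherry library. TGFBR1 fell by 1.54 (SE 0.20, adjusted p = 0.00028) without M2rtTA and by 1.21 (SE 0.20, adjusted p = 0.00098) with it.

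In PANC1 without M2rtTA, TGFBR1 measured 10.02, 8.91 and 11.7 CPM with OVOL2 and 17.4, 12.8 and 17.2 CPM with mCherry, not overlapping and not called (−0.63, SE 0.24, adjusted p = 0.169). With M2rtTA the PANC1 groups overlapped, at 5.76, 9.82 and 13.4 CPM against 13.998, 13.6 and 11.4 CPM (−0.44, SE 0.25, adjusted p = 0.277). KP4 had the lowest level of the 3 lines. There the values without M2rtTA were 6.02, 3.79 and 4.90 CPM with OVOL2 and 5.05, 7.30 and 3.43 CPM with mCherry, which overlapped. With M2rtTA they were 5.65, 2.33 and 4.03 CPM against 6.18, 7.82 and 10.01 CPM, with no overlap and no call (−0.997, SE 0.41, adjusted p = 0.0994).

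Over the 3 lines TGFBR1 fell by 0.74 without M2rtTA (SE 0.17, adjusted p = 0.00223) and by 0.88 with it (SE 0.17, adjusted p = 0.00013). The lines were not shown to differ (adjusted p = 0.148 and 0.423), and neither were the arms (−0.14, 95% interval −0.64 to 0.36, adjusted p = 0.794).

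**Figure D2:**
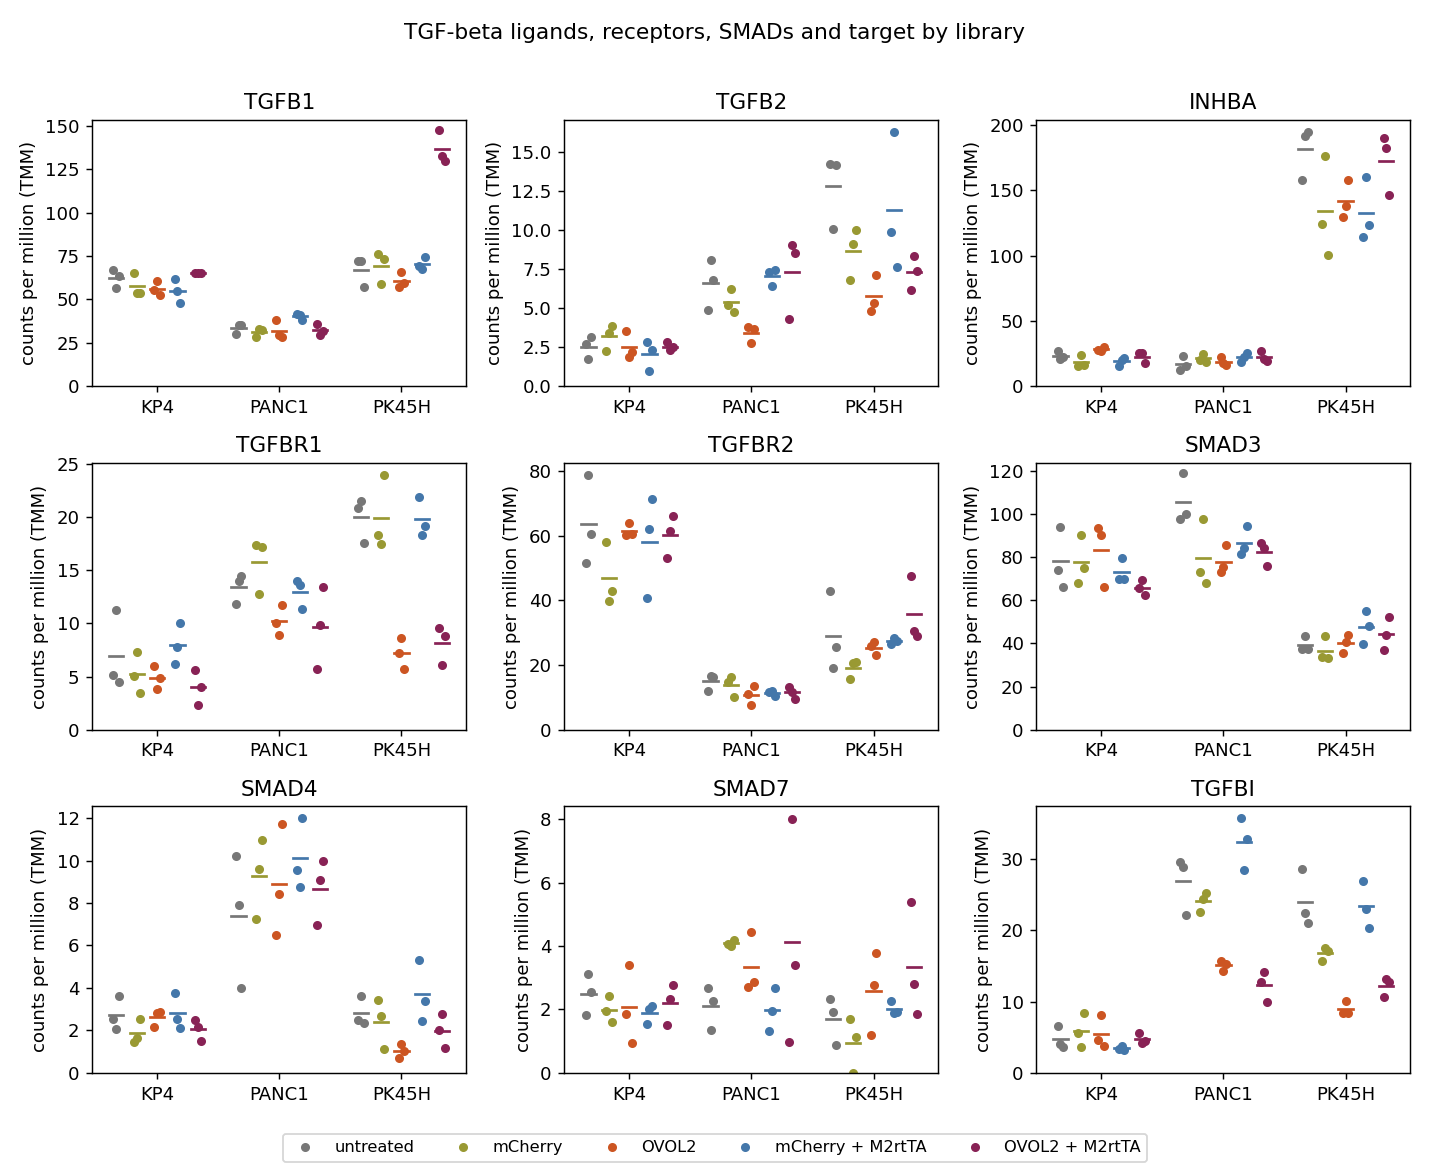
CPM (y axis, linear from 0) of each gene in every library of KP4, PANC1 and PK45H (x axis), coloured by treatment; horizontal lines are group means of 3 libraries. TGFB1 in PK45H with OVOL2 and M2rtTA, at 129.6 to 147 CPM, stands above all other libraries of the panel, and TGFBR1 in PK45H and TGFBI in PANC1 and PK45H are lower with OVOL2.

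TGFBR2 encodes the type II receptor that binds the ligand and activates the type I kinase, and it was not called in either arm. In KP4 without M2rtTA it measured 60.2, 63.8 and 60.6 CPM with OVOL2 and 57.9, 39.8 and 42.7 CPM with mCherry. In PK45H the corresponding values were 25.7, 27.1 and 23.1 CPM and 15.6, 20.6 and 20.8 CPM. OVOL2 libraries lay above mCherry libraries in both lines, without a call (0.39, adjusted p = 0.311, and 0.35, adjusted p = 0.481). The mean over lines was 0.14 without M2rtTA (95% interval −0.15 to 0.43, adjusted p = 0.549) and 0.17 with it (−0.12 to 0.45, adjusted p = 0.392).

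Sequence upstream of the receptors and of TGFBI is shown because TGFBR1 and TGFBI fell in both arms while TGFBR2 was not called. Each run is the 250 bases before the outermost RefSeq start site of the gene, 5′ to 3′ on the gene's strand (plus in all 3, GRCh38.p14), and capitals mark a motif match. The windows are chr9:99103397-99103646 for TGFBR1, chr3:30606106-30606355 for TGFBR2 and chr5:136028738-136028987 for TGFBI.
TGFBR1: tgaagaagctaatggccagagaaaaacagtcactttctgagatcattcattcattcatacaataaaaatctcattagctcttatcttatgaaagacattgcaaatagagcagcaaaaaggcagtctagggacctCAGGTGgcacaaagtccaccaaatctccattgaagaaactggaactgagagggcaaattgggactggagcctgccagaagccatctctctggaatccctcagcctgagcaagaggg
TGFBR2: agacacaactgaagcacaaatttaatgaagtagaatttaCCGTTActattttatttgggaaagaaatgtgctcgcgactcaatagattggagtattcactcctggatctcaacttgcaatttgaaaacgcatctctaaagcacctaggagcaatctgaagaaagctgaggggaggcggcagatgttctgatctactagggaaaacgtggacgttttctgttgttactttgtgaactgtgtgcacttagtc
TGFBI: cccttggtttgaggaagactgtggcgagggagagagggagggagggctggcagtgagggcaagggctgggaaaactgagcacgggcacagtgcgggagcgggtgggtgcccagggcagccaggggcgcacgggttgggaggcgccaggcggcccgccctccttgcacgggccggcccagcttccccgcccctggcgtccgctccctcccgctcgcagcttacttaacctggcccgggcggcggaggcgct

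The motifs were searched on both strands of all RefSeq promoter windows of 300 bases, 250 before and 50 after a start: CCGTTA, the core letters of OVO-type sites, CACCTG, an E-box of ZEB and SNAI factors, CAGACA, the SMAD box, and TGANTCA, the AP-1 site. CCGTTA was in 3.07% of 35116 windows, CACCTG in 20.6%, CAGACA in 16.9% and TGANTCA in 7.71%. Among the 23 windows of the 9 genes, CCGTTA was found in 1, that of TGFBR2, beginning 211 bases before the start. CACCTG was in 5 windows of TGFBR1, SMAD3 and SMAD7, and in the TGFBR1 window shown it is read as CAGGTG, on the other strand. The SMAD box CAGACA was in 5 windows of TGFB2, INHBA, TGFBR1 and SMAD3, and TGANTCA in 2, of TGFBR2 and SMAD3. The TGFBI, TGFB1 and SMAD4 windows held none of the 4. Each of these genes has 1 window, beside 8 for TGFBR1 and 5 for SMAD3, so genes with more windows had more sequence searched. A match is a description of letters and not a measured site.

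SMAD3 carries the signal of the activated receptor to the nucleus, and it was not called in either arm. Its changes over lines were 0.05 without M2rtTA (95% interval −0.14 to 0.25, adjusted p = 0.755) and −0.09 with it (−0.28 to 0.10, adjusted p = 0.503). No line was called, and the changes by line ran from −0.14 in KP4 with M2rtTA to 0.09 in KP4 without it. SMAD4, the shared partner of the receptor-activated SMADs, and SMAD7, the inhibitory SMAD induced by the pathway, were near the limit of the depth, with 3 to 72 and 0 to 53 counts per library. SMAD4 changed by −0.24 without M2rtTA (−0.70 to 0.22, adjusted p = 0.529) and by −0.50 with it (−0.92 to −0.07, adjusted p = 0.0673). The latter passed the threshold without PK45H OVOL2 M2rtTA replicate 2 (−0.60, adjusted p = 0.0384) or PK45H mCherry M2rtTA replicate 2 (−0.56, adjusted p = 0.0431). SMAD7 changed by 0.34 (−0.32 to 1.00, adjusted p = 0.529) and 0.69 (0.05 to 1.32, adjusted p = 0.0902). With M2rtTA it passed the threshold without PANC1 OVOL2 M2rtTA replicate 1, over lines (0.82, adjusted p = 0.0280) and in PANC1 (1.51, adjusted p = 0.0372). With all libraries neither gene was called in any line. In PANC1 with OVOL2 and M2rtTA 1 library held 53 SMAD7 counts and another 4, and the group overlapped that of mCherry.

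TGFBI encodes a secreted matrix protein that TGF-beta is known to induce. In PANC1 with M2rtTA it measured 12.7, 14.2 and 10.0002 CPM with OVOL2 and 35.8, 28.4 and 32.9 CPM with mCherry. In PK45H with M2rtTA the values were 10.6, 13.2 and 12.7 CPM against 26.9, 23.1 and 20.3 CPM. OVOL2 and mCherry libraries were fully separate in both lines. TGFBI fell by 1.39 in PANC1 (SE 0.17, adjusted p = 8.7e-05) and by 0.88 in PK45H (SE 0.17, adjusted p = 0.0033).

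KP4 behaved differently for TGFBI, which had low counts there. With M2rtTA TGFBI held 18 to 34 counts per KP4 library with OVOL2 and 15 to 17 with mCherry, which limits precision. It measured 5.65, 4.17 and 4.53 CPM with OVOL2 and 3.31, 3.78 and 3.27 CPM with mCherry. All OVOL2 libraries were the higher ones but no change was called (0.48, SE 0.38, adjusted p = 0.408). The difference between lines with M2rtTA was called (adjusted p = 0.00212). It was called for 2 of 9 genes, TGFB1 and TGFBI, beside 7.56% of all genes.

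Without M2rtTA, TGFBI measured 15.7, 14.3 and 15.2 CPM with OVOL2 and 22.6, 24.4 and 25.2 CPM with mCherry in PANC1. In PK45H it measured 8.42, 10.02 and 8.41 CPM against 15.6, 17.5 and 17.1 CPM. Both lines were separate again, with falls of 0.68 in PANC1 (SE 0.17, adjusted p = 0.0301) and 0.97 in PK45H (SE 0.18, adjusted p = 0.00408). The PANC1 call was lost when any 1 of its 6 libraries was left out, with changes of −0.72 to −0.63. In KP4 the libraries overlapped, at 4.63, 8.14 and 3.79 CPM against 5.53, 3.65 and 8.46 CPM. Over lines TGFBI fell by 0.56 without M2rtTA (SE 0.13, adjusted p = 0.00259) and by 0.60 with it (SE 0.14, adjusted p = 0.00086), and the arms were not shown to differ (−0.04, 95% interval −0.44 to 0.37). Without M2rtTA no gene of the 9 was called for a difference between lines by edgeR or DESeq2, beside 2.74% of all genes, and 3 had an unadjusted p under 0.05.

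By line, the called genes lay in PK45H and PANC1. In PK45H, 2 of 9 were called without M2rtTA (TGFBR1 and TGFBI), beside 8.39% of all genes, and 3 of 9 with it (TGFB1, TGFBR1 and TGFBI), beside 15.9%. In PANC1 TGFBI was called in both arms, beside 5.08% of all genes without M2rtTA and 13.9% with it. In KP4 no gene was called by edgeR or DESeq2 in either arm, beside 6.82% and 22.4% of all genes, with 1 gene at an unadjusted p under 0.05 in each (INHBA, then TGFBR1).

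Transduction and M2rtTA without OVOL2 called none of the 9 genes. For mCherry against untreated, edgeR and DESeq2 called 0 of 9, beside 0.489% of all genes, and TGFBR2 alone had an unadjusted p under 0.05 (−0.38, SE 0.14, adjusted p = 0.312). For mCherry with M2rtTA against mCherry, they again called 0 of 9, beside 0.0602%, with SMAD4 as the 1 gene under an unadjusted 0.05 (0.45, SE 0.21, adjusted p = 0.590). The mCherry group of each arm is the control of that arm's OVOL2 effect.

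The untreated lines differed widely in these genes: 8 of 9 were called in a test of any difference among the 5 lines, beside 57.8% of all 13785 genes tested, and SMAD7 was not (adjusted p = 0.209). HPAFII replicate 2 stood apart. It had the lowest total of the series, TGFBR2 at 14.3 CPM against 54.5 and 54.4 CPM in its mates, and INHBA at 54.1 CPM against 23.4 and 22.1 CPM. It also differed in TGFB1 (69.9 CPM against 38.6 and 29.8), SMAD4 (3.01 against 9.82 and 12.5), TGFBI (101 against 251 and 189) and OVOL2 (1.504 against 6.97 and 6.93). Whether it is the labelled line was not tested, and the HPAFII means given here include it.

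Pairs of lines were compared for the order of levels in each gene. Of all genes, the share called was 20.2% between HPAFII and PATU8988S, 29.9% between HPAFII and KP4, 28.7% between HPAFII and PANC1 and 25.2% between HPAFII and PK45H. For PATU8988S it was 32.5% against KP4, 29.3% against PANC1 and 28.3% against PK45H. It was 21.9% between KP4 and PANC1, 23.5% between KP4 and PK45H and 25.6% between PANC1 and PK45H.

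INHBA was far higher in PK45H, at 158, 191 and 195 CPM, than in the other lines. HPAFII measured 23.4, 54.1 and 22.1 CPM, KP4 26.8, 21.0 and 22.3 CPM, PATU8988S 25.6, 19.7 and 17.7 CPM, and PANC1 12.5, 23.5 and 15.6 CPM. PK45H did not overlap any line. Against PK45H the log2 difference was −2.40 in HPAFII (adjusted p = 0.00010) and −3.34 in PANC1 (adjusted p = 6.1e-06), with KP4 and PATU8988S between. Of the neighbours below it, HPAFII and KP4 (adjusted p = 0.213), KP4 and PATU8988S (adjusted p = 0.834) and PATU8988S and PANC1 (adjusted p = 0.588) did not differ beyond their spread.

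TGFBI was highest in HPAFII, at 251, 101 and 189 CPM. PANC1 followed at 29.6, 28.9 and 22.2 CPM and PK45H at 28.7, 22.4 and 21.1 CPM, and these neighbours were not shown to differ (adjusted p = 0.665). PATU8988S measured 9.96, 13.6 and 7.09 CPM, and KP4 was lowest at 6.56, 3.99 and 3.60 CPM. HPAFII exceeded PANC1 by 2.77 (adjusted p = 1.7e-05), and PATU8988S exceeded KP4 by 1.15 (adjusted p = 0.0184). PATU8988S stood at −1.19 against PK45H (adjusted p = 0.0116).

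TGFB2 was also highest in HPAFII, at 22.2 ± 9.13 CPM (SD, n = 3), followed by PK45H at 12.8 ± 2.40, PANC1 at 6.62 ± 1.63, PATU8988S at 3.20 ± 2.19 and KP4 at 2.55 ± 0.740. None of the 4 neighbouring pairs was called. TGFB1 was at 67.0 ± 8.54 CPM in PK45H, 62.3 ± 5.32 in KP4, 47.7 ± 7.14 in PATU8988S, 46.1 ± 21.1 in HPAFII and 33.6 ± 2.87 in PANC1. Its call for any difference (adjusted p = 0.0391) was kept in 13 of 22 alternatives. No pair of neighbours in that order was called.

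TGFBR1 stood at 21.8 ± 2.78 CPM in PATU8988S, 19.98 ± 2.13 in PK45H, 13.4 ± 1.44 in PANC1, 10.996 ± 1.69 in HPAFII and 6.94 ± 3.77 in KP4, and no neighbouring pair was called. TGFBR2 was highest in KP4, at 63.6 ± 13.9 CPM, and lowest in PANC1, at 14.98 ± 2.57, which differed by 2.03 (adjusted p = 0.00182). HPAFII (41.0 ± 23.2), PATU8988S (40.4 ± 6.17) and PK45H (29.0 ± 12.3) lay between, with no neighbouring pair called.

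SMAD3 was highest in PANC1 (106 ± 11.8 CPM) and KP4 (78.1 ± 14.4), followed by HPAFII (50.03 ± 12.0), PK45H (39.4 ± 3.62) and PATU8988S (32.1 ± 5.75). No neighbouring pair was called, and KP4 exceeded PK45H by 0.98 (adjusted p = 0.00272). SMAD4 was at 8.45 ± 4.90 CPM in HPAFII and 7.37 ± 3.16 in PANC1, and at 2.82 ± 0.715 in PK45H, 2.75 ± 0.780 in KP4 and 2.49 ± 0.637 in PATU8988S. PANC1 exceeded PK45H by 1.45 (adjusted p = 0.0221), and the other neighbours were not called. SMAD7 ran from 1.70 ± 0.743 CPM in PK45H to 3.87 ± 1.40 in HPAFII.

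**Figure D3:**
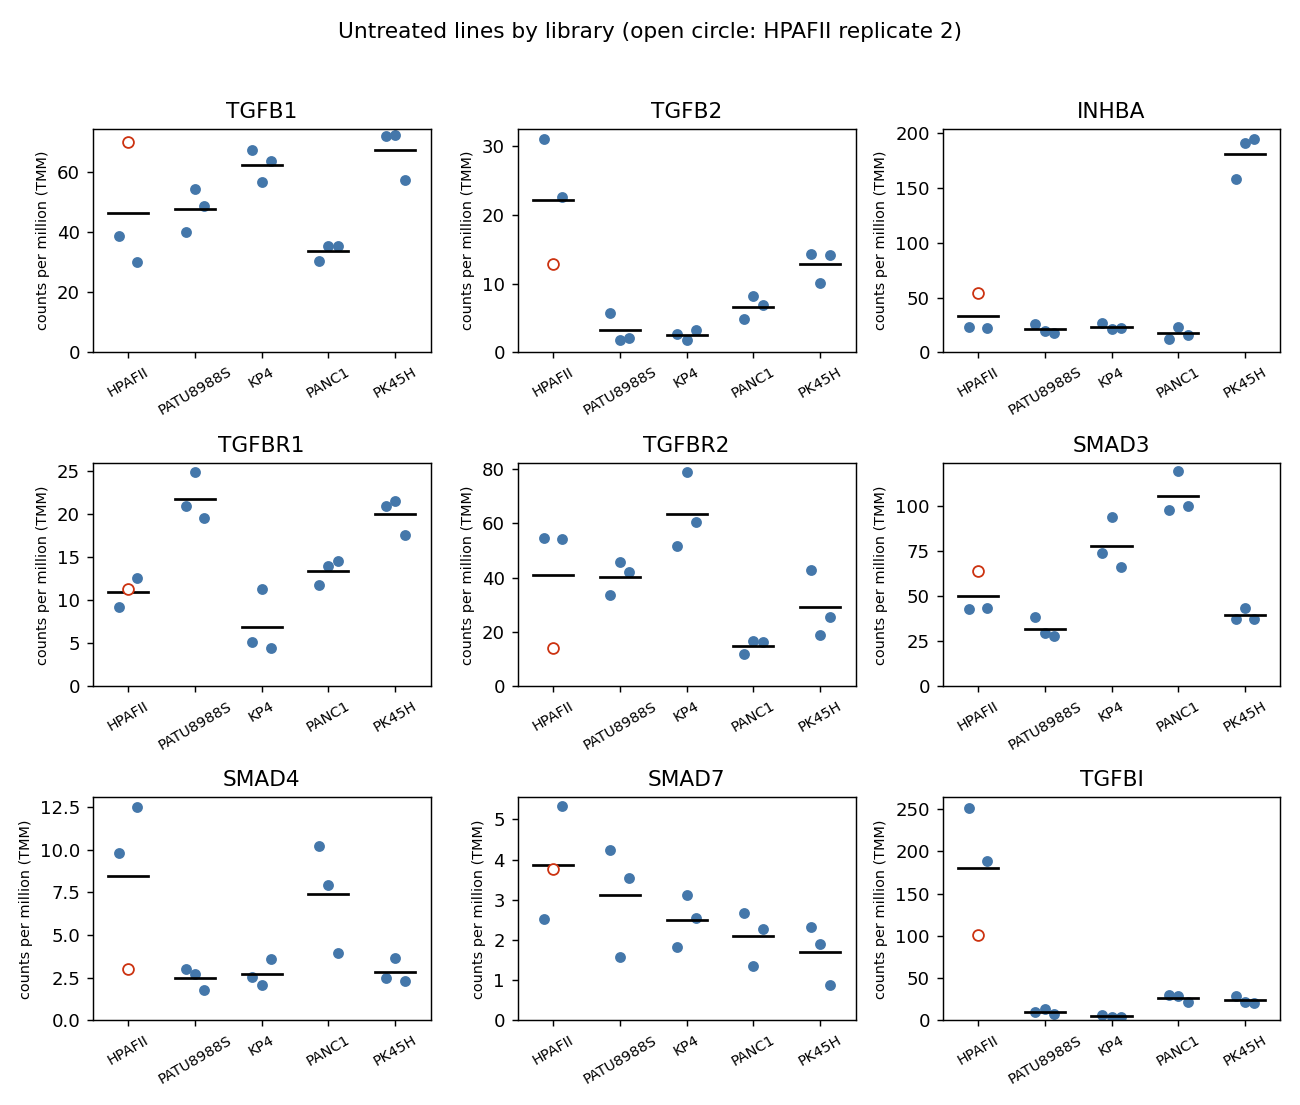
CPM (y axis, linear from 0) of each gene in the 3 untreated libraries of each line (x axis); horizontal lines are means and the open circle is HPAFII replicate 2. INHBA stands out in PK45H at 158 to 195 CPM and TGFBI in HPAFII at 101 to 251 CPM.

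Between HPAFII and PATU8988S as 1 set and KP4, PANC1 and PK45H as the other, 3 of 9 genes were called, beside 34.8% of all genes. TGFBI was higher by 1.61 (SE 0.20, adjusted p = 2.3e-05), SMAD3 lower (−0.74, SE 0.14, adjusted p = 0.00063) and INHBA lower (−0.63, SE 0.21, adjusted p = 0.0297). The members of each set are far apart, since TGFBI was high in HPAFII and not in PATU8988S, and INHBA was high in PK45H and not in KP4 or PANC1. For SMAD3 the mean of PK45H (39.4 CPM) lay below that of HPAFII (50.03 CPM). These p-values measure the spread between libraries within lines, not between the lines of a set. The INHBA call was lost with libraries thinned to the smallest total (−0.52, adjusted p = 0.157) and on leaving out any of 6 single libraries, HPAFII replicates 1 and 3, PATU8988S replicates 2 and 3, PANC1 replicate 2 and KP4 replicate 1, with changes of −0.61 to −0.52. Without HPAFII replicate 2, 5 of 9 genes were called, INHBA among them (−0.90, adjusted p = 0.00041).

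A list of 87 other genes of the pathway gives the context, and 77 of them could be tested. It was described by counts alone. Without M2rtTA 18 were called (9 higher, 9 lower), 23.4% of those tested beside 18.1% of all genes. With M2rtTA 31 were called (18 higher, 13 lower), 40.3% beside 32.9%. Median changes of the list were −0.04 and 0.10, against 0.00 and 0.03 for all genes.

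Called genes of the list went both ways among known TGF-beta targets. Of 23 induced targets, 4 were higher and 5 lower without M2rtTA, beside 18.1% of all genes called in either direction. With M2rtTA 8 were higher and 4 lower, beside 32.9%. LOXL2, a lysyl oxidase that crosslinks collagen, fell by 1.81 (SE 0.12, adjusted p = 2.2e-13) without M2rtTA and by 1.82 (SE 0.12, adjusted p = 1.1e-13) with it. It was called in every line and arm. CCN2 and CCN1, matricellular targets, were called lower in both arms, at −1.03 and −0.46 without M2rtTA and −0.63 and −0.69 with it, and lines differed for CCN2 without M2rtTA (adjusted p = 3.9e-05), where it fell by 2.75 in PK45H. Lines differed for CCN2 with M2rtTA too (adjusted p = 0.00965), with a fall of 1.58 in PK45H beside −0.26 in PANC1 and −0.03 in KP4, neither called. For CCN1 no single line was called without M2rtTA. With M2rtTA the lines differed for CCN1 (adjusted p = 0.00581), at a called −0.84 in PANC1 and −1.44 in PK45H and an uncalled 0.20 in KP4.

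COL1A1, a collagen chain, rose by 1.72 with M2rtTA (SE 0.14, adjusted p = 1.2e-11), in each of the 3 lines, and was not called over lines without it (0.31, adjusted p = 0.170). By line without M2rtTA it was called in KP4 (0.86, adjusted p = 0.0422) and uncalled at 0.11 in PANC1 and −0.11 in PK45H. This gene also belongs to the fibroblast marker sum given with OVOL2. CDKN1A, the cell-cycle inhibitor p21, rose by 0.56 and 0.67, and JUNB, an AP-1 subunit, by 0.74 and 0.85. BHLHE40, a transcriptional repressor, rose by 0.41 without M2rtTA (adjusted p = 0.0202) and by 0.57 with it (adjusted p = 0.00056). The call without M2rtTA was lost on leaving out any of 4 libraries (PANC1 OVOL2 replicate 1, KP4 mCherry replicate 1, and replicate 1 of OVOL2 and of mCherry in PK45H), at 0.33 in the first of these cases. SNAI1, a transcription factor of epithelial-to-mesenchymal transition, rose by 1.60 (adjusted p = 0.0292) and by 1.26 (adjusted p = 0.0410), from at most 42 counts per library. It could not be tested in PK45H alone. Its call without M2rtTA was lost on thinning and on leaving out any of 6 libraries, KP4 OVOL2 replicate 1, KP4 mCherry replicate 3, PK45H OVOL2 replicates 2 and 3 and PK45H mCherry replicates 1 and 3. ITGA5, the fibronectin receptor subunit, fell by 0.44 without M2rtTA and by 1.43 with it, and the arms differed (−0.996, SE 0.17, adjusted p = 0.00023). The call without M2rtTA was lost without PK45H mCherry replicate 1, at −0.33.

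Among pathway regulators, 20 were tested. PMEPA1, which sequesters receptor-activated SMADs, rose by 0.70 with M2rtTA (SE 0.07, adjusted p = 4.8e-10) and by 0.20 without it (adjusted p = 0.0359). Without M2rtTA the lines differed (adjusted p = 0.00064), at a called 0.78 in PANC1 and an uncalled −0.14 in KP4 and −0.10 in PK45H. The call over lines without M2rtTA was lost when any of 12 libraries was left out. FKBP1A, which holds the type I receptor inactive, rose by 0.30 and 0.52. SKI, a SMAD corepressor, rose by 0.73 with M2rtTA. SMURF2, a ubiquitin ligase of the receptor, and STRAP, a receptor-associated protein, fell by 0.58 and 0.51 with M2rtTA. Neither was called over lines without it. For SMURF2 the lines differed without M2rtTA (adjusted p = 0.0141), at a called −0.61 in PK45H and an uncalled 0.46 in KP4 and 0.21 in PANC1. SMURF1, another such ligase, rose by 0.40 without M2rtTA and by 0.33 with it. SMAD6, an inhibitory SMAD like SMAD7, fell by 0.66 without M2rtTA (SE 0.20, adjusted p = 0.0180) and by 0.58 with it (SE 0.18, adjusted p = 0.0137). The first of these calls was lost without PK45H mCherry replicate 3, at −0.57, and on thinning. Without M2rtTA SMAD6 was called at −1.06 in KP4 and uncalled at −0.87 in PANC1 and −0.09 in PK45H. With M2rtTA it was called at −1.51 in PANC1 and uncalled at −0.01 in KP4 and −0.21 in PK45H. The lines were not shown to differ for SMAD6 (adjusted p = 0.520 without M2rtTA and 0.0501 with it). The SKIL call without M2rtTA rested on 1 library. Its 2.89 became 1.69 and was no longer called without PK45H OVOL2 replicate 2, which held 5799 counts against 199 and 68 in its mates. With M2rtTA SKIL was called too (1.90, SE 0.73, adjusted p = 0.0426). By line it was then called at 4.96 in PK45H (adjusted p = 0.0261) and uncalled at 0.96 in KP4 and −0.22 in PANC1. Leaving out libraries was not examined for SKIL with M2rtTA.

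Over lines, edgeR called 0 of 11 other ligands and ligand antagonists without M2rtTA, beside 18.1% of all genes, with 0 at an unadjusted p under 0.05. With M2rtTA it called 3, all higher, beside 32.9% of all genes. GDF15, a stress-induced ligand of the family, rose by 1.51 (SE 0.19, adjusted p = 6.8e-08) and FSTL3, an activin antagonist, by 0.66. For FSTL3 the lines differed without M2rtTA (adjusted p = 0.00276), at a called 0.87 in KP4 and an uncalled −0.28 in PANC1 and −0.27 in PK45H. Of 10 latency and activation genes, LTBP4, which anchors latent TGF-beta in the matrix, fell by 1.45 and 0.98, and LTBP2 fell by 0.56 and 0.60. Without M2rtTA the lines differed for both (adjusted p = 0.00045 and 0.00116). LTBP4 was called at −3.05 in KP4 and uncalled at −0.61 in PANC1 and −0.73 in PK45H. LTBP2 was called at −1.02 in PANC1 and −1.17 in PK45H and uncalled at 0.46 in KP4. With M2rtTA LTBP4 was not called in PK45H (−0.27). The lines differed for LTBP2 with M2rtTA (adjusted p = 9.6e-07), where it fell by 2.11 in PANC1 (SE 0.22, adjusted p = 2.3e-05) and measured 0.02 in KP4 and 0.28 in PK45H, neither called. Of 10 other receptors and co-receptors, edgeR called 0 over lines without M2rtTA, beside 18.1% of all genes, with 2 at an unadjusted p under 0.05. With M2rtTA it called 2, beside 32.9% of all genes. These were the activin receptors ACVR1B (0.47, SE 0.12, adjusted p = 0.00234) and ACVR2A (−1.87, SE 0.70, adjusted p = 0.0390), named after their values were seen. ID1, a BMP target, fell by 0.85 and 1.03. With M2rtTA the lines differed for it (adjusted p = 0.00168), at a called −2.20 in PANC1 and an uncalled −0.89 in KP4 and −0.00093 in PK45H. Other BMP targets went both ways with M2rtTA: ID2 rose by 0.85 (adjusted p = 0.0113) and ID3 fell by 0.79 (adjusted p = 0.00040). Neither was called over lines without M2rtTA, and both were named after their values were seen.

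**Figure D4:**
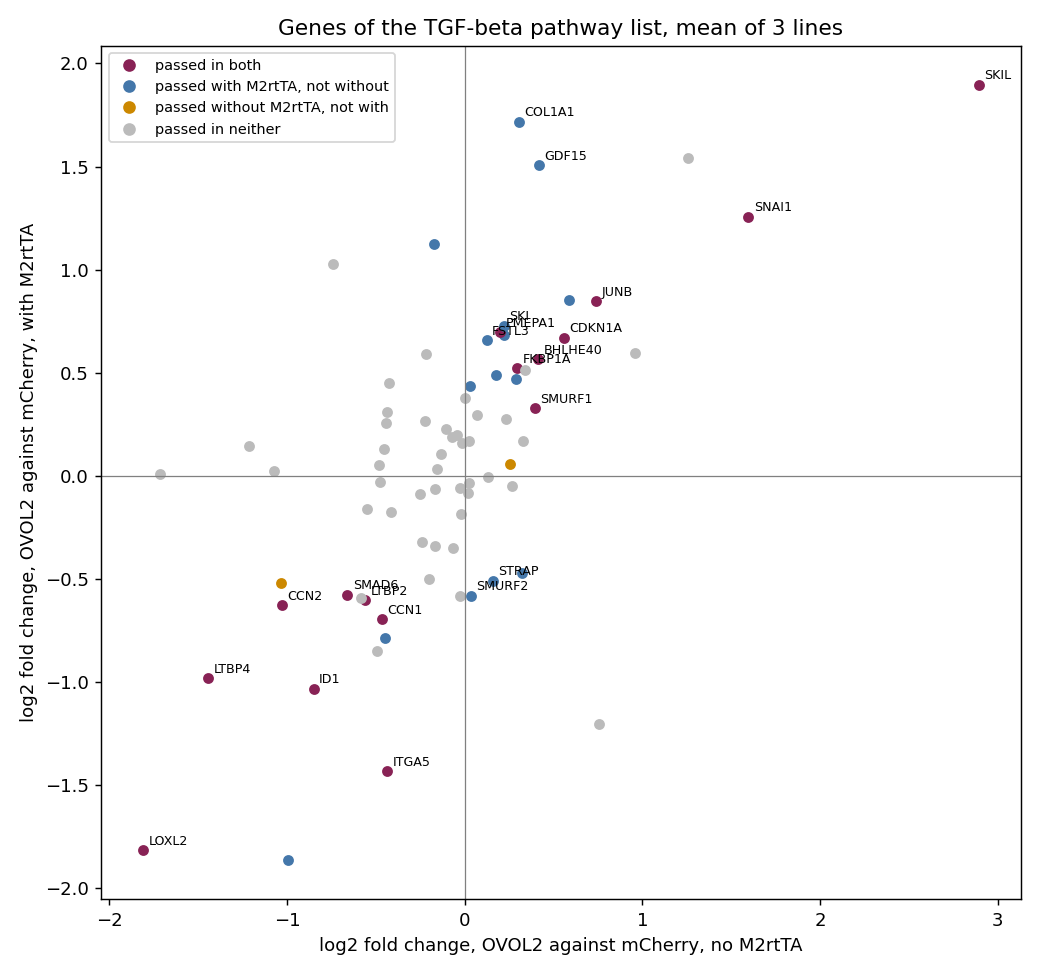
Log2 fold change of OVOL2 against mCherry without M2rtTA (x axis) and with it (y axis) for the 77 tested genes of the pathway list, mean of 3 lines, coloured by where the adjusted p was under 0.05. LOXL2, LTBP4 and ID1 lie low on both axes, and COL1A1 and GDF15 lie high on the y axis.

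**Figure D5:**
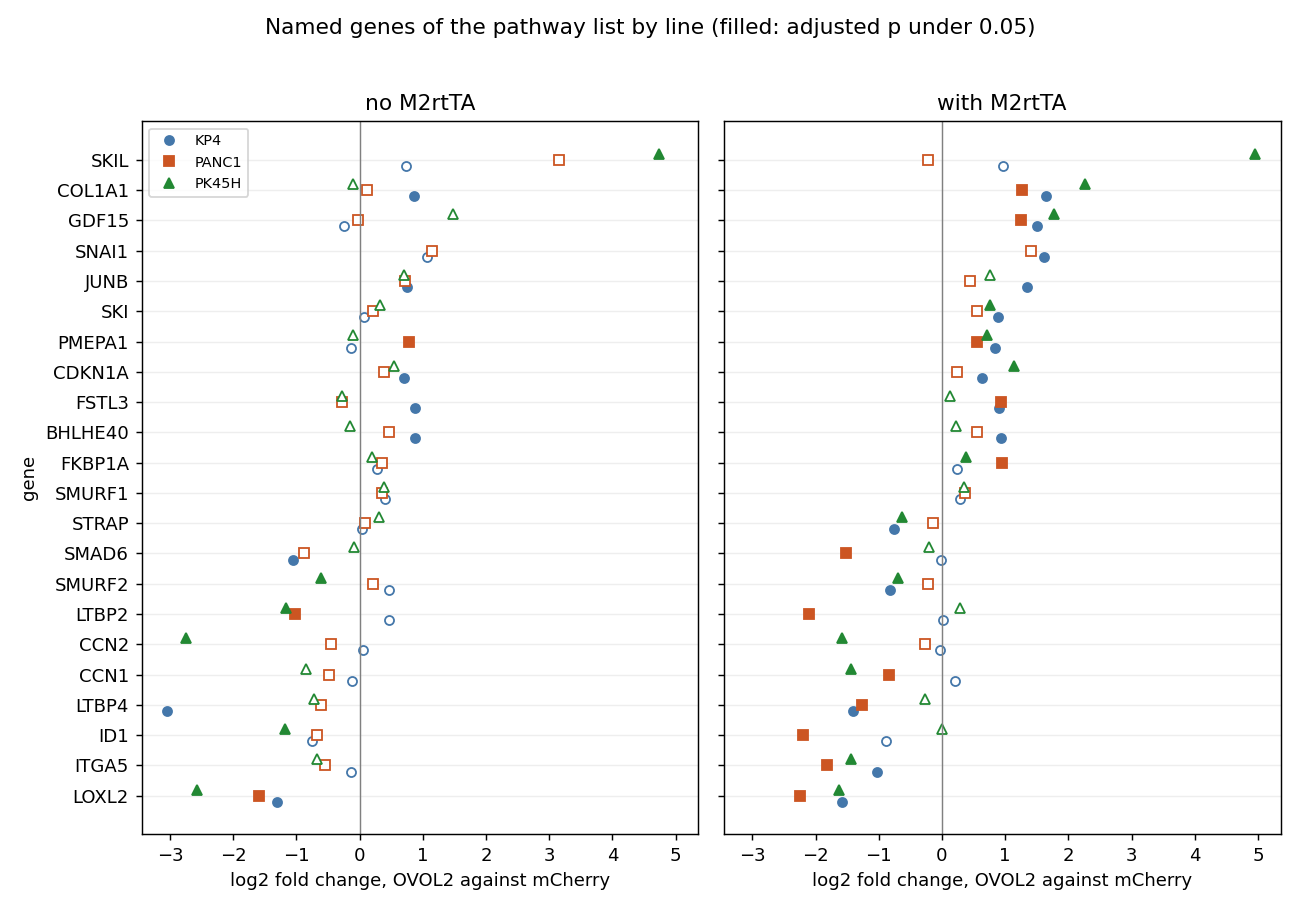
Log2 fold change of OVOL2 against mCherry (x axis) for the named genes of the pathway list (y axis) in KP4, PANC1 and PK45H, without M2rtTA (left) and with it (right); filled symbols have an adjusted p under 0.05. LOXL2 is filled in all 3 lines on both sides, and LTBP2 with M2rtTA is filled in PANC1 and open in KP4 and PK45H.

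Across the 17 groups, the genes most like each member were listed by Pearson's r of mean log2 CPM over 7953 candidate genes. These values describe shared lines and treatments and carry no test. INHBA was most like IL1A (r = 0.99), LIMCH1 (0.98) and CD74 (0.98). SMAD3 was most like KCNMA1 (0.96), TGFBR2 like SSBP3 (0.95), TGFBI like ADIRF (0.94), TGFB1 like MOSPD3 (0.91) and TGFBR1 like TGOLN2 (0.90). TGFB2 was most like APOL1 (0.89), with TGFBI second (0.88), the 1 case where a member was among the 3 closest genes of another. SMAD4 and SMAD7 were too low to be matched. Between members, r ran lowest for TGFB1 and SMAD4 (−0.77).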

How the data were processed

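PLATE-seq libraries of 5 human PDA cell lines were used as gene counts, taken as deposited by the authors. The values are whole numbers whose totals differ between libraries. Per the submitters' processing notes, kallisto 0.44.0 and GRCh38 were used, and the handling of molecular identifiers is not given in the sources used here. Columns were matched to samples by their descriptions, and 0 columns stayed unmatched. In R 4.3.3, edgeR 4.0.16 was run with filterByExpr by group, TMM scaling and two-sided quasi-likelihood tests on contrasts of group means. One fit held the 45 libraries of KP4, PANC1 and PK45H, one the 15 of each line, and one the 15 untreated libraries. Differences between lines had 2 degrees of freedom. Standard errors were derived from the test statistic. The code was tested on simulated data.

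The 9 members, the 87-gene pathway list and the markers were chosen with earlier results of these data known. One other gene of the list is not reported here. Beside the members and OVOL2, up to 8 genes of the list per direction and arm were named by smallest p among those called. ACVR1B, ACVR2A, ID2 and ID3 were added after their values were seen. SKIL, ITGA5, SMAD6, PMEPA1, BHLHE40 and SNAI1 calls without M2rtTA that were lost on leaving out single libraries are marked. Within the list, leaving out libraries was examined only for genes named by smallest p, in the arm where they were so named. Other calls were not examined in this way. Among them are those of SNAI1, SMAD6, BHLHE40, SMURF1, CCN2 and SKIL with M2rtTA and of ACVR1B, ACVR2A, ID2 and ID3. Likeness used genes of at least 10 CPM and members of at least 5 CPM on average.

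Alternatives tried were DESeq2 1.42.0, RLE scaling in edgeR, testing without a filter or with a minimum mean count of 10, a replicate block, robust dispersion, thinning to the smallest total, a fit of the compared groups, and leaving out each library. Replicate numbers did not pair libraries. Replicates of a group differed beyond sampling noise. Promoter windows are RefSeq's, on GRCh38.p14. Totals from 1165399 to 7490556 counts limit precision for SMAD4, SMAD7 and TGFB2, and for TGFBI and TGFBR1 in KP4.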

Additional observations from a re-analysis of the deposited data

Results flagged for a closer look

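With M2rtTA, the 3 transduced lines differed in the effect of OVOL2 on TGFB1 (edgeR, adjusted p = 2.5e-05) and on TGFBI (adjusted p = 0.00212). TGFB1 rose by 1.02 in PK45H, against −0.32 in PANC1 and 0.26 in KP4. TGFBI fell in PANC1 and PK45H, against 0.48 in KP4. For TGFB1 the effect also differed between the arms with and without M2rtTA (adjusted p = 0.0148).

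Of the pathway genes named without M2rtTA, lines differed for CCN2 (adjusted p = 3.9e-05), LTBP4 (0.00045), PMEPA1 (0.00064), LTBP2 (0.00116) and LOXL2 (0.0319). Without M2rtTA they also differed for FSTL3 (0.00276) and SMURF2 (0.0141), which were named in the other arm. With M2rtTA the lines differed for LTBP2 (9.6e-07), ID1 (0.00168), FKBP1A (0.00565), CCN1 (0.00581), CCN2 (0.00965), CDKN1A (0.0206) and FSTL3 (0.0293). The arms differed for COL1A1 (2.5e-05), ITGA5 (0.00023), STRAP (0.00046), PMEPA1 (0.00098), SMURF2 (0.00254), FSTL3 (0.0120) and GDF15 (0.0129).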

How the results depend on the processing

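Of 1215 alternative values of 63 single-gene results, 1150 kept their direction and their side of the threshold, 38 lost the threshold, 6 passed it and 21 changed sign, none of these a called result. The 63 results, for members and OVOL2, were a selection that includes uncalled ones. An uncalled result that kept its sign and stayed uncalled counts among the 1150. The replicate block changed no count of members called, and the 3 calls over lines without M2rtTA stayed 3. Of the pathway list it called 17 without M2rtTA and 29 with it, against 18 and 31. Of the 63 single-gene results that were fitted with it, OVOL2 in KP4 with M2rtTA was no longer called (2.83, adjusted p = 0.0618) and no other call changed. Replicate numbers were not read as a pairing, since only 6 of 36 correlations of deviations were above 0.1. TGFB2 over lines without M2rtTA was not called without a filter, with DESeq2 or with robust dispersion. The count of members called in PANC1 without M2rtTA went from 1 to 0 without a filter, with thinned libraries and in a fit of the compared groups, and was 0 whichever of its 6 libraries was left out. In KP4 without M2rtTA it went from 0 to 1 with thinned libraries (INHBA) and ran from 0 to 1 when libraries were left out. It ran from 1 to 2 in PANC1 with M2rtTA, where the second gene was SMAD7 without PANC1 OVOL2 M2rtTA replicate 1, and from 2 to 5 for the untreated sets. OVOL2 without M2rtTA changed sign with thinned libraries (0.25), as did TGFBR1 in KP4 without M2rtTA (0.11). Leaving out libraries gave −0.27 to 0.20 for OVOL2 without M2rtTA and −0.17 to 0.050 for TGFB2 with M2rtTA over lines. Without M2rtTA it gave, in KP4, −0.49 to 0.26 for TGFBI, −0.32 to 0.21 for TGFBR1 and −0.11 to 0.031 for TGFB1, and −0.12 to 0.13 for TGFB1 in PANC1. With M2rtTA it gave −0.022 to 0.60 for TGFB2 in KP4 and −0.11 to 0.29 in PANC1. Low counts limit SMAD4, SMAD7 and TGFB2, and TGFBI and TGFBR1 in KP4.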
